A study of Mus musculus with 60 samples.

Results

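The cytosolic ribosome is assembled from ribosomal RNA and sets of small-subunit (Rps) and large-subunit (Rpl, Rplp) proteins, and their genes were examined here in fetal mouse brain. A row of the array's table summarises the probes of a transcript cluster. Members were rows with exactly 1 gene symbol that starts with Rpl or Rps and a number, plus Rpsa, Rplp0, Rplp1 and Rplp2. Rps6k kinases, Rps13 and symbols with -ps were left out, and the row with the highest mean stood for each gene. The rule found 62 of the 19938 genes that have a row of their own, taken from 216 of 21789 such rows. By symbol, 33 encode large-subunit proteins and 20 small-subunit proteins, 7 are paralogue forms (Rpl10l, Rpl32l, Rpl39l, Rpl3l, Rpl7l1, Rps27l and Rps4l) and 2 are not ribosomal proteins (Rps19bp1, which binds Rps19, and Rps23rg1, a retroposed relative of Rps23). A further 20 ribosomal protein symbols, Rpl11 among them, lie only in rows shared with other symbols and are not analysed here.

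Ribosomal protein mRNAs are among the most abundant in growing cells, and many carry a pyrimidine-rich start (the 5′ terminal oligopyrimidine, or TOP, element) through which mTOR signalling and Larp1 set their translation together. Their proteins are made in matched amounts, and unassembled ones are degraded or, as with Rpl5, bind Mdm2 and stabilise p53. In the developing brain, dividing progenitors are known for high ribosome production, which declines as neurons differentiate.

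Chlorpyrifos oxon (CPO), the toxic metabolite of the insecticide chlorpyrifos, was given to pregnant mice for 12 days, gestational days 6 to 17, and fetal brains were taken on day 18. CPO inhibits acetylcholinesterase, and paraoxonase 1 (PON1), a blood enzyme, hydrolyses it. All mice had the B6.129 strain background, and the genotypes are labelled wild type (WT), PON1-knockout (KO), tgHuPON1Q192 (Q-tg) and tgHuPON1R192 (R-tg), the latter pair named for a human PON1 transgene. The 12 groups hold 5 arrays each: the daily doses per kg of body weight were 0, 0.75 mg or 0.85 mg for WT, Q-tg and R-tg, and 0, 0.5 mg or 0.75 mg for KO, written mg/kg/d here. Each Affymetrix Mouse Gene 1.0 ST array holds RNA pooled from the fetuses of 1 dam, and dams stand as replicates. Dams whose brain acetylcholinesterase activity lay far from the mean of their group were excluded first, and a random draw chose among the rest. The labels used here do not give the promoter of the transgenes. The question the design asks is whether repeated CPO and PON1 status change fetal brain expression.

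Before any comparison, the Pon1 transcript cluster was set against the labels. It was at or below 5.67 on 15 arrays and at or above 9.72 on 45, in log2 signal, with none between. Of the arrays labelled KO, 5 were high, and of the others 5 were low, so 10 of 60 arrays went against their genotype label. Group results are therefore given for the labelled groups, and each was repeated without those 10 arrays. Neuron markers were high on every array, as in brain tissue: Stmn2 ranged from 12.80 to 12.96 and Dcx from 12.09 to 12.33. The deposited values are log2 signals after RMA, and the number of arrays limits the precision.

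The start regions of 9 genes are shown first, since TOP regulation turns on the bases around the transcription start. They belong to Rps4x, Rps7 and Rpl6, of those that followed the other members most closely, and to 3 genes at each end of the second pattern of co-variation described further on. Each shows 25 bases before the annotated start and 15 from it, from RefSeq on GRCm38.p6 and 5′ to 3′ on the gene's strand, with the longest run of at least 5 C or T in capitals. Where runs tie in length, as in Rps7, the first is marked, and any other run stays in lower case. A sequence all in lower case has no such run.
Rps4x, chrX:102189377-102189416, minus strand: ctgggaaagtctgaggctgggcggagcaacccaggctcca
Rps7, chr12:28635939-28635978, minus strand: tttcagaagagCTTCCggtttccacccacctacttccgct
Rpl6, chr5:121204476-121204515, plus strand: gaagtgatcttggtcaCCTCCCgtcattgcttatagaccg
Rps6, chr4:86857353-86857392, minus strand: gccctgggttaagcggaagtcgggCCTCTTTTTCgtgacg
Rps15a, chr7:118116133-118116172, minus strand: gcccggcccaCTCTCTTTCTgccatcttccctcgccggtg
Rps25, chr9:44407689-44407728, plus strand: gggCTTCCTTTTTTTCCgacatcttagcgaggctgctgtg
Rps19, chr7:24884567-24884606, plus strand: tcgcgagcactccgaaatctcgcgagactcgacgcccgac
Rps3, chr7:99483695-99483734, minus strand: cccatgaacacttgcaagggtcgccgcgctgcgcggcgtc
Rpl13, chr8:123102325-123102364, plus strand: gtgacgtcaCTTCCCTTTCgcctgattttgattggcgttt
The marked run of Rps6 begins 1 base before the annotated start, whereas the marked runs of Rps15a, Rps25 and Rpl13 lie upstream of it. Rps15a also has a shorter run, left in lower case, that begins 1 base before its start as in Rps6. Rps19 has 3 annotated starts, and the one shown has no run.

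Promoter sequence (250 bases before to 50 after a start) was matched for 50 of the 62 genes, 42 of them ribosomal proteins. A C followed by at least 6 C or T within 30 bases of a start, on the gene's strand, occurred in 24 of those 42 (57.1%), against 29.7% of 27025 genes. CCGGAAG, the core bound by Ets-family factors such as Gabpa, occurred on either strand in 17 of 42 (40.5%), against 9.93%. AAGATGGC, a core of the Yy1 motif, was in 2 of 42 (4.76%, against 3.19%), and TATAAA was in 5 (11.9%, against 15.7%). On the other strand CCGGAAG reads CTTCCGG, whose first letters are pyrimidines, so its matches can overlap a tract. These are matches in a window, not shown to be sites. Members with and without the tract followed the others about equally: their median correlations with the other members, defined further on, were 0.49 and 0.50.

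Ribosomal protein genes were bright and steady across the 60 arrays. Mean log2 signals of the 53 ribosomal members ran from 7.80 (Rpl14) to 12.88 (Rps6), though signals of different transcript clusters depend on their probes and do not order the genes by mRNA. Over 60 arrays the SD of a member had a median of 0.072, against 0.107 over all genes. Bright genes vary less on arrays: among 1956 genes with a mean of at least 10, the median SD was 0.066, and for the 45 members among them it was 0.059. Of those 45, 4 lay below the 5th percentile of the bright genes' SD (0.043) and 5 above the 95th (0.110).

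The steadiest members above the dim level (6.54, the 95th percentile of 1035 olfactory receptor rows) were Rps2, a small-subunit protein near the mRNA entry channel, with an SD of 0.035 (range 12.27 to 12.45), Rpl10 (0.036), Rpl37a (0.042), Rpl23 (0.043) and Rps28 (0.044). Rpl10 is added late in assembly of the large subunit. The low SD of Rps2 is that of its brightest row. Its other rows, with means of 12.20 and 12.10, had SDs of 0.077 and 0.059. The most variable were Rpl14 with an SD of 0.232 (range 6.84 to 8.18), Rps23rg1 (0.149), Rps15a (0.142), Rps19 (0.132) and Rpl12 (0.132). Rps19 is in humans the gene most often mutated in Diamond-Blackfan anaemia. Rpl14 varied most through low arrays: Q-tg at 0.85 mg/kg/d had 7.81, 7.84, 7.86, 6.84 and 7.89, and WT at 0.85 had 7.94, 7.87, 7.50, 7.24 and 7.48. In Q-tg, 1 array lay far below the other 4, while in WT the 5 arrays were spread out.

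**Figure D1:**
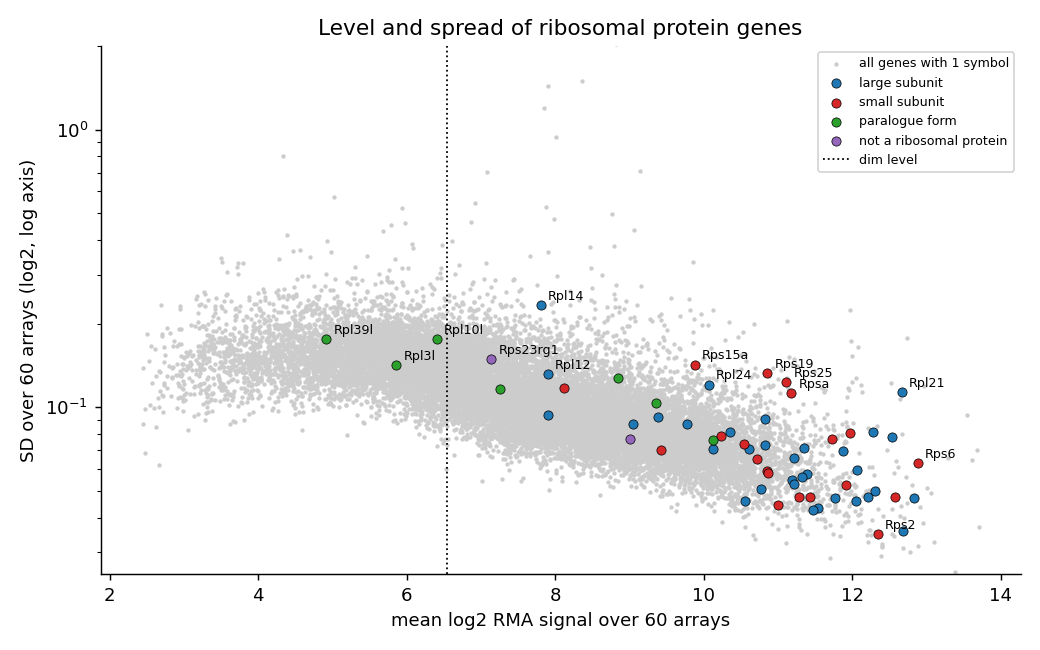
Each point is a gene, placed by its mean log2 RMA signal over 60 arrays and its SD over the same arrays on a log axis; grey points are all genes with a row of their own and coloured points the 62 members by class. Most members lie at the bright, low-SD end, Rpl14 stands above at a mean of 7.80, and Rpl39l, Rpl3l and Rpl10l lie left of the dotted dim level of 6.54.

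The paralogue forms split into expressed and dim. Rpl10l, Rpl3l and Rpl39l, known for expression in testis (Rpl10l and Rpl39l) and in striated muscle (Rpl3l), had means of 6.41, 5.86 and 4.91, all under the dim level, where differences carry little information. Rpl7l1, a ribosome assembly factor related to Rpl7, had a mean of 10.12 and ranged from 9.92 to 10.29. Rps27l, a p53-regulated relative of Rps27, had a mean of 9.35 and ranged from 9.00 to 9.58. Both were therefore well above dim on every array. Rpl32l had 7.26 and Rps4l, which the gene table gives as a transcribed pseudogene, 8.84. Rps4x, the X-linked form of Rps4, had 11.27 with an SD of 0.048. Rps19bp1, a regulator of the deacetylase Sirt1 as well as a partner of Rps19, had 9.01, and Rps23rg1 had 7.13.

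Ribosomal protein genes have many processed copies in the genome, so probes can be shared, and 38 of the 62 genes had several rows, up to 14 for Rps12. Rows of the same gene followed each other with a median Pearson r of 0.83 (median over 38 genes, group means subtracted), and in 23 genes the median was above 0.8. In 3 genes it was below 0.4: Rpl23 (0.07), Rps2 (0.22) and Rps21 (0.33). Values of those 3 depend on the row, since a second row did not follow the first. In 5 genes (Rpl23a, Rpl27, Rpl41, Rps12 and Rps28) some rows were identical in every array, so they add no further measurement.

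No member passed the test for a difference among the 12 labelled groups. The moderated F test of limma (11 degrees of freedom, Benjamini-Hochberg over 21789 rows) called 0 of 62 members against 0% of all rows, and at an unadjusted p under 0.05 it found 0 of 62 against 4.84%. The smallest unadjusted p among members was 0.0672, for Rpl12, a protein at the base of the ribosomal stalk. Its group means in log2 signal lay between 7.78 ± 0.15 (SD, n = 5) in R-tg at 0.85 mg/kg/d and 8.02 ± 0.13 in KO at 0.5. Without the 10 arrays whose Pon1 signal goes against the label, 0 members and 79 other rows passed.

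The level of the whole family was summarised on each array as the median, over the 62 genes, of the deviation from the gene's mean over 60 arrays. Group means of this value lay between -0.012 ± 0.037 (SD, n = 5) for R-tg at dose 0 and 0.018 ± 0.036 for KO at 0.75 mg/kg/d, so the largest gap between groups was smaller than the SD within either. WT had 0.012 ± 0.031 without CPO, -0.0044 ± 0.026 at 0.75 mg/kg/d and -0.010 ± 0.017 at the higher dose. In R-tg the group mean went the other way, from -0.012 at dose 0 to 0.0050 ± 0.046 and 0.0042 ± 0.032. Single arrays weighed on these R-tg means. At 0.75 mg/kg/d, replicate 3, whose Pon1 signal goes against the label, was at 0.073, and the others lay between -0.056 and 0.014. At dose 0, replicate 4 was at -0.075, and the others lay between -0.012 and 0.017. The groups overlapped in both genotypes.

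**Figure D2:**
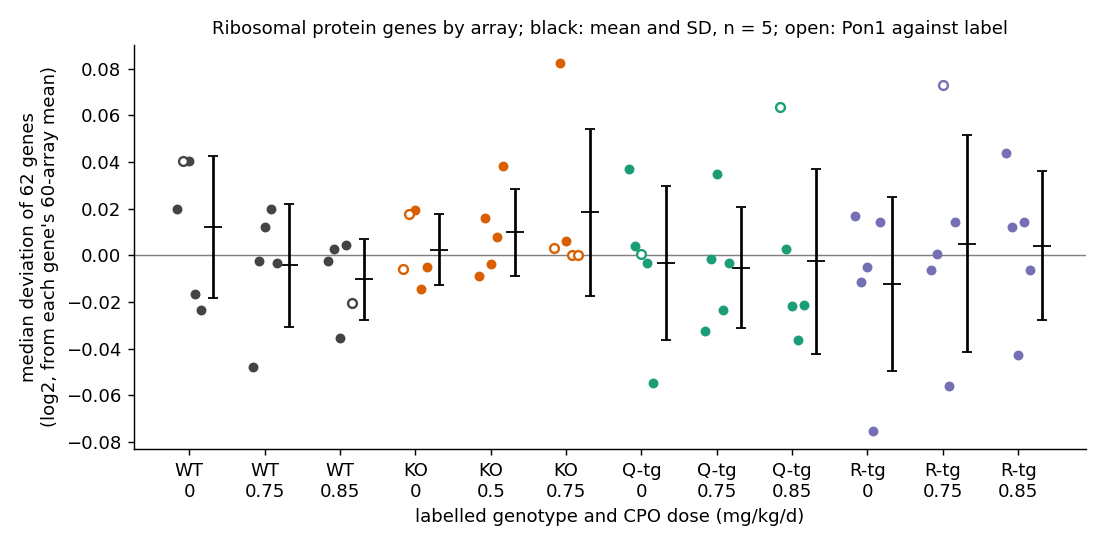
Each point is an array, at the median deviation of the 62 genes from their means over 60 arrays (log2), by labelled genotype and CPO dose; black marks are group means with SD (n = 5), and open points are the 10 arrays whose Pon1 signal goes against the label. The KO group at 0.75 has 1 array at 0.082 above 4 arrays between 0.00014 and 0.0063, and the other groups straddle zero.

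No member passed the test for a CPO dose in any labelled genotype. In all 8 comparisons of a dose with dose 0, limma called 0 of 62 members and 0% of all rows. The 2 doses of a genotype share their dose 0 arrays, so their values are not independent. Differences below are log2 differences with the SE of the model. No 95% interval of a ribosomal member reached beyond 0.47 in size, and that widest one belongs to Rpl14.

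In WT at 0.75 mg/kg/d, 2 of 62 members had an unadjusted p under 0.05, against 10.2% of all rows. They were the dim Rpl39l at -0.22 (SE 0.10) and Rpl3l at -0.21 (SE 0.087), and next came Rpl14 at 0.18 (SE 0.14) and Rpl10l at -0.16. The median over members was -0.015, with 22 of 62 above zero, and over all rows it was 0.0045, with 52.2% above zero. In WT at 0.85 the unadjusted count was 0 of 62 against 2.15%, the members' median was -0.025 (all rows 0.0089), and the widest differences were Rpl14 at -0.17, Rps23rg1 at 0.12, Rpl10l at -0.12 and Rpsa at 0.099. Rpl14 thus lay above its control at one dose and below it at the other, by more than its SE of 0.14 but with zero inside the 95% interval both times.

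In KO at 0.5 mg/kg/d, the lowest dose given, the unadjusted count was 0 of 62 against 1.84%. The median of members was 0.0026 and of all rows 0.00025, and the widest differences were Rpl32l at -0.11, Rpl41 at 0.090, Rpl34 at 0.081 and Rpl29 at 0.072. In KO at 0.75 the unadjusted count was 0 of 62 against 2.9%. The median was 0.015 with 40 of 62 above zero (all rows -0.020, 37.0% above zero). The small-subunit member Rps3a1 was at 0.15 (SE 0.075), Rps15a at 0.12 (SE 0.087), Rpl14 at 0.12 and Rpl21 at 0.092. Only 2 of the 5 arrays labelled KO at 0.75 had a low Pon1 signal.

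In Q-tg at 0.75 mg/kg/d, 1 of 62 members, Rpl39l at -0.23 (SE 0.10), had an unadjusted p under 0.05, against 2.35% of rows. The median was -0.0011 (all rows 0.0036), and Rps15a followed at 0.095, Rplp2 at -0.088 and Rps23rg1 at 0.082. In Q-tg at 0.85, 3 of 62 did, against 3.86%: Rpl10l at -0.26 (SE 0.11), Rpl30 at 0.11 (SE 0.053) and Rpl36 at 0.089 (SE 0.044). Rpl14 was at -0.20 (SE 0.14) and Rpl21 at -0.10, and the members' median was -0.0063 (all rows 0.014). The difference of Rpl14 rests on 1 array: without replicate 4 of that group it was 0.0048.

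In R-tg at 0.75 mg/kg/d, 1 of 62 members, Rpsa, had an unadjusted p under 0.05, against 5.31%. Rpsa was at -0.17 (SE 0.068, adjusted p 0.898 in limma), Rpl14 at 0.19 (SE 0.14), Rpl12 at 0.12 and Rpl32l at 0.10. The median of members was 0.022 with 43 of 62 above zero, whereas it was -0.016 over all rows, with 41.0% above zero. In R-tg at 0.85, 2 of 62 did, against 4.86%: Rpsa at -0.15 (SE 0.068) and Rpl30 at -0.12 (SE 0.053). Rpl10l was at 0.13 and Rps19 at 0.10, and the members' median was 0.018 (all rows -0.0084). The low values of Rpsa at both doses share the R-tg arrays of dose 0.

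**Figure D3:**
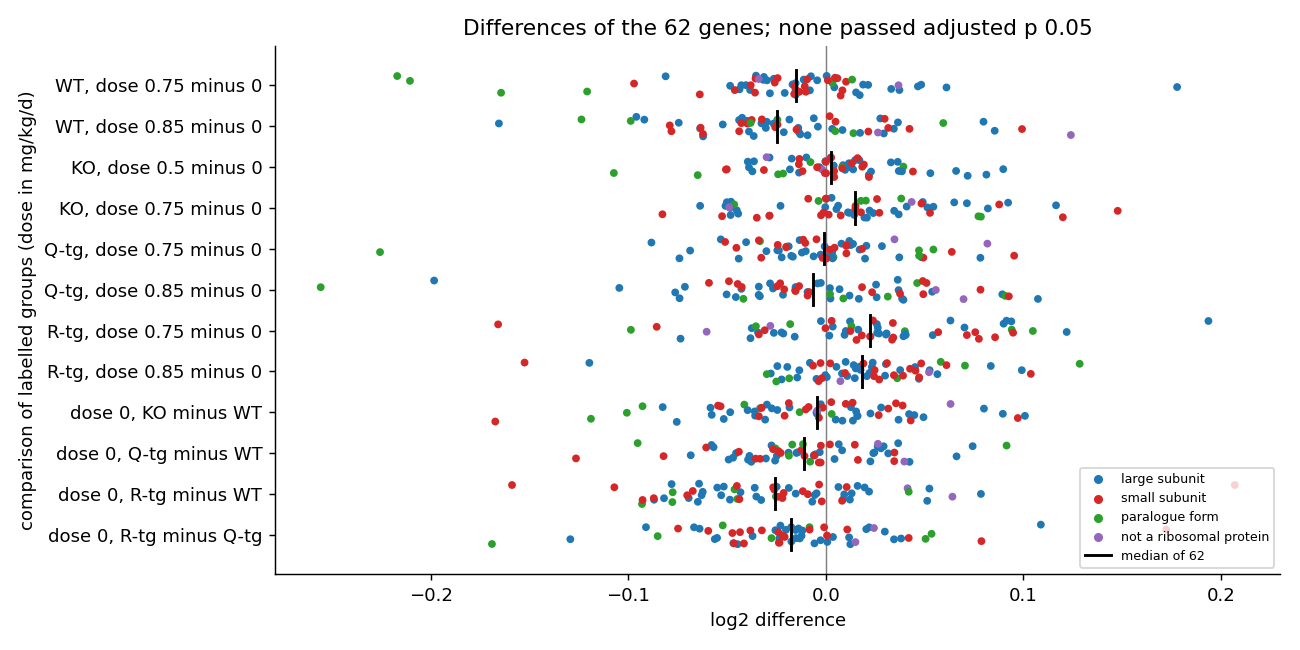
Each point is a member's log2 difference in a comparison of labelled groups (n = 5 each), coloured by class, with a black bar at the median of the 62 and vertical scatter added for legibility. Medians lie between -0.026 and 0.022, nearly all points lie within 0.2 of zero, and none passed an adjusted p of 0.05 in limma.

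Between labelled genotypes at dose 0 no member was called either: 0 of 62 and 0% of all rows in each of 4 comparisons. For KO minus WT, the comparison of mice without and with Pon1 by label, 0 of 62 had an unadjusted p under 0.05 against 3.25%, and the members' median was -0.0044 (all rows 0.018). The widest differences were Rps15a at -0.17 (SE 0.087), Rps4l at -0.12, Rpl30 at 0.10 (SE 0.053) and Rpl39l at -0.10. Without the 10 arrays, limma called 29 rows there, none of them a member. For Q-tg minus WT the unadjusted count was 0 of 62 against 1.66%, the median was -0.011 (all rows 0.0037), and Rps15a was at -0.13, Rpl7l1 at -0.095 (SE 0.050), Rpl39l at 0.091 and Rps21 at -0.082. Rps15a, a small-subunit protein, had the lowest difference of the 62 against WT in KO and Q-tg and, as given next, in R-tg, and these comparisons share the WT arrays.

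Rps15a on the 5 WT arrays at dose 0 read 9.96, 9.86, 10.06, 10.05 and 9.96. The KO arrays read 10.02, 9.90, 9.88, 9.56 and 9.69, the Q-tg arrays 9.87, 9.85, 9.83, 9.85 and 9.85, and the R-tg arrays 9.89, 9.78, 9.91, 9.54 and 9.97. The Q-tg arrays were nearly equal to each other, and those of KO and R-tg spread widely and overlapped with WT. The readings are in order of replicate number. KO replicates 1 and 2, WT replicate 2 and Q-tg replicate 3 have a Pon1 signal against the label. The other KO arrays (9.88, 9.56 and 9.69) lay below the other WT arrays (9.96, 10.06, 10.05 and 9.96). R-tg still overlapped with those WT arrays, and no member was called without the arrays that go against their label.

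For R-tg minus WT, 1 of 62 members had an unadjusted p under 0.05, against 3.93% of rows: Rpsa at 0.21 (SE 0.068, unadjusted p 0.00379, adjusted p 0.9996 in limma). Rps15a was at -0.16 (SE 0.087), Rps19 at -0.11 and Rpl10l at -0.093, and the members' median was -0.026 with 17 of 62 above zero (all rows 0.013, 58.2% above zero). For R-tg minus Q-tg, 2 of 62 did, against 5.43%: Rpsa at 0.17 (SE 0.068) and Rpl30 at 0.11 (SE 0.053). The dim Rpl39l was at -0.17 and Rpl12 at -0.13, with a members' median of -0.017 (all rows 0.0095).

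Rpsa encodes a small-subunit protein that is also known as the laminin receptor precursor. On the 5 R-tg arrays at dose 0 it read 11.23, 11.14, 11.37, 11.34 and 11.53 in log2 signal. The WT arrays at dose 0 read 11.21, 11.16, 11.16, 11.05 and 10.99, and the Q-tg arrays 11.25, 11.13, 11.14, 11.13 and 11.10. At 0.75 mg/kg/d the R-tg arrays read 11.04, 11.37, 11.19, 11.02 and 11.16, and at 0.85 they read 11.18, 11.06, 11.07, 11.25 and 11.28. Of the R-tg arrays at dose 0, 4 lay above all WT arrays and 1 lay among them, and the R-tg groups overlapped across doses. The WT group at 0.85 held an array at 11.47, nearly as high as the top R-tg array, so high readings were not confined to R-tg.

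Rpsa has 5 rows, and they did not all move alike. Over 60 arrays the brightest row correlated with the others at 0.78, 0.95, -0.27 and 0.82. In R-tg and WT at dose 0, the brightest had means of 11.32 ± 0.15 (SD, n = 5) and 11.11 ± 0.088. The second had 10.54 ± 0.060 and 10.45 ± 0.057, and the third 10.50 ± 0.12 and 10.35 ± 0.048. The fourth went the other way, 9.65 ± 0.18 against 9.78 ± 0.080, and the fifth had 9.61 ± 0.21 against 9.43 ± 0.065. The gap was thus present in 4 of 5 rows, at different sizes. The brightest row also followed Emc4, a subunit of the membrane protein insertion complex of the endoplasmic reticulum, with r = 0.73 (Spearman's rho 0.70, 0.70 without the 2 farthest arrays, n = 60). The other rows of Rpsa, in the same order, correlated with Emc4 at 0.53, 0.75, -0.41 and 0.58, so the fourth again went the other way. That pair was picked after values were seen.

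Rpl30, a large-subunit protein, had responses of opposite sign in the transgenic lines. The Q-tg arrays read 8.95, 9.03, 9.06, 8.95 and 8.92 at dose 0 and 9.16, 9.08, 9.06, 9.14 and 9.00 at 0.85 mg/kg/d. The R-tg arrays read 9.32, 9.09, 9.05, 8.96 and 9.03 at dose 0 and 9.05, 9.01, 8.92, 8.93 and 8.94 at 0.85. In both lines the dose groups overlapped, and the R-tg arrays at dose 0 included 1 high reading. The highest Q-tg readings, 9.06 at dose 0 and 9.16 at 0.85, were on arrays whose Pon1 signal goes against the label. The difference between the 2 responses was -0.23 (SE 0.075, unadjusted p 0.00389), with an adjusted p of 0.546 in limma.

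**Figure D4:**
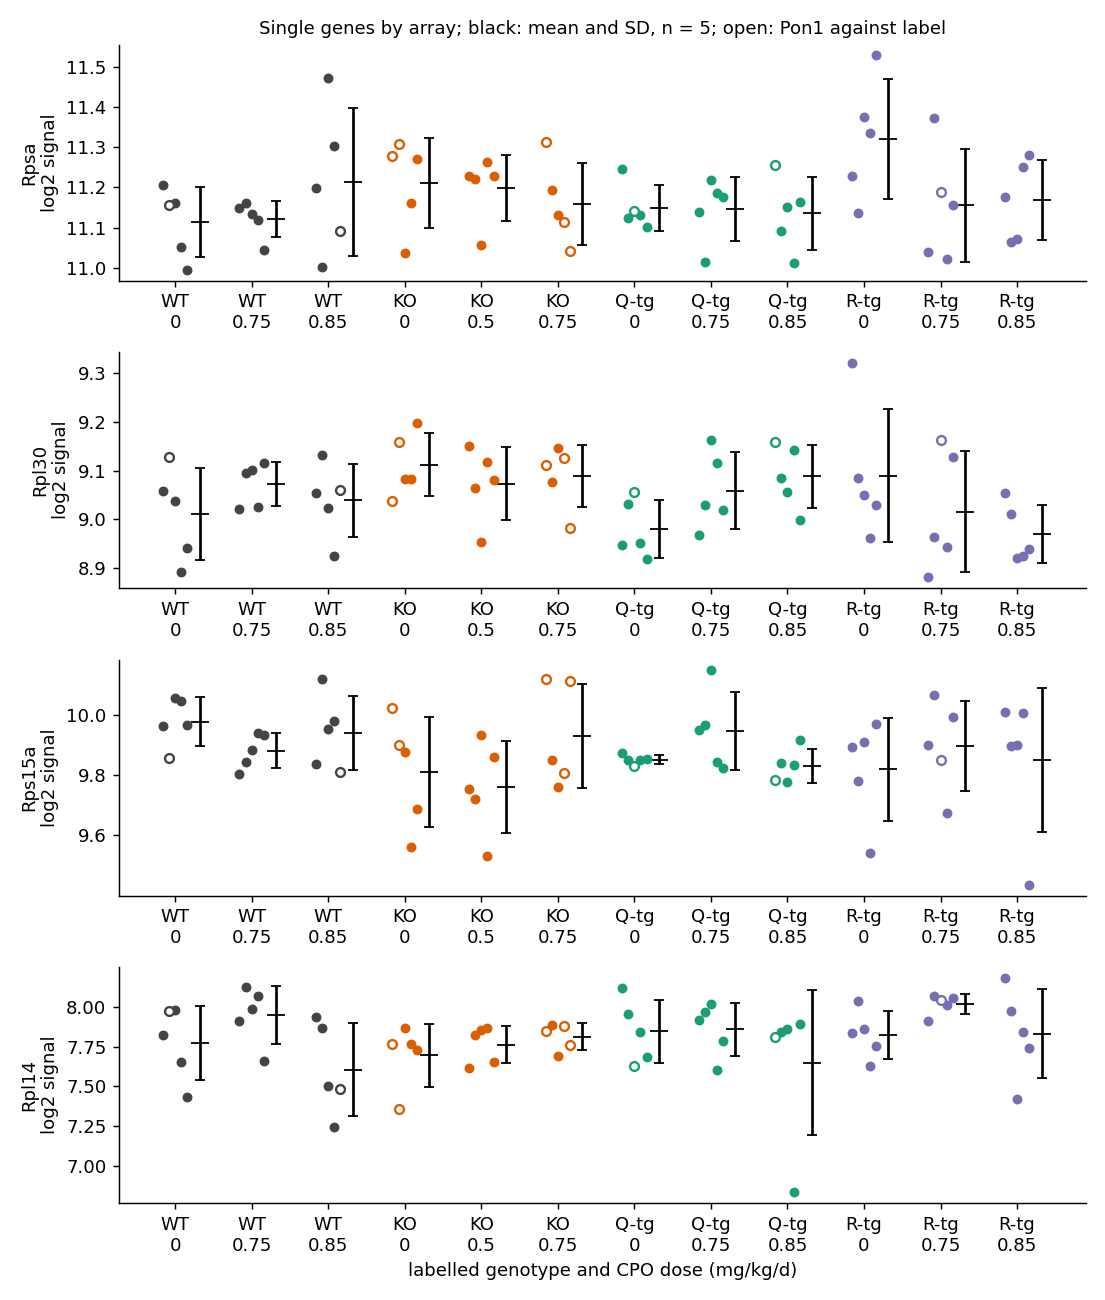
Log2 RMA signals of Rpsa, Rpl30, Rps15a and Rpl14 on each array by labelled genotype and CPO dose (mg/kg/d); black marks are group means with SD (n = 5), and open points are arrays whose Pon1 signal goes against the label. Rpsa in R-tg at dose 0 has the highest mean (11.32) but overlaps with the other groups, and Rpl14 has a single reading of 6.84 in Q-tg at 0.85.

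Whether PON1 status modified the response was tested as the difference between responses, in 7 contrasts. limma called 0 of 62 members in every one. In 6 of them 0% of rows were called, and for R-tg minus WT at 0.75 mg/kg/d it was 0.00459%, a single row that is no member. At an unadjusted p under 0.05, the 0.75 responses gave 2 of 62 for KO minus WT (all rows 7.59%), 0 for Q-tg minus WT (2.23%), 3 for R-tg minus WT (13%) and 2 for R-tg minus Q-tg (5.81%). The 0.85 responses gave 1 of 62 for Q-tg minus WT (1.87%), 1 for R-tg minus WT (4.76%) and 2 for R-tg minus Q-tg (8.2%).

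The widest differences between responses are named next for each contrast, by size and whatever their unadjusted p. For KO minus WT at 0.75 they were Rpl39l at 0.30 (SE 0.15), Rpl3l at 0.25, Rps15a at 0.22 and Rpl10l at 0.18. For Q-tg minus WT they were Rps15a at 0.19, Rpl3l at 0.18, Rpl14 at -0.17 and Rpl10l at 0.14, and for R-tg minus WT Rpl10l at 0.26, Rpl3l at 0.25, Rpl32l at 0.23 (SE 0.099) and Rpl12 at 0.20. All 3 share the WT arrays, in which Rpl3l and Rpl10l were lower at 0.75. For R-tg minus Q-tg at 0.75 they were Rpl39l at 0.21, Rpl12 at 0.20, Rpl14 at 0.18 and Rpsa at -0.16. At 0.85 they were Rps19 at 0.17, Rpl10l at -0.13, Rpl36 at 0.13 (SE 0.062) and Rplp2 at -0.12 for Q-tg minus WT. For R-tg minus WT at 0.85 they were Rpl10l at 0.25, Rpsa at -0.25 (SE 0.097, adjusted p 0.998 in limma), Rps19 at 0.18 and Rpl14 at 0.17. For R-tg minus Q-tg they were Rpl10l at 0.38 (SE 0.15), Rpl30 at -0.23, Rpl14 at 0.21 and Rpl21 at 0.16.

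Genes that build ribosomes or act with them gave no calls either. Of 40 measured ribosome biogenesis genes, such as nucleolin (Ncl) and fibrillarin (Fbl), limma called 0 in any of the 12 dose and genotype comparisons, and 0 to 4 per comparison had an unadjusted p under 0.05. The 4 were in WT at 0.75, where 10.2% of all rows did. It also called 0 of 16 elongation factors and other TOP mRNAs, 17 initiation factors, 12 genes of TOP translation control, 12 of the p53 and stress response to faulty ribosomes, and 18 assembly chaperones and export factors, with 0 to 3 per list and comparison at an unadjusted p under 0.05. The counts of 3 were those of the stress response list in R-tg minus Q-tg at dose 0 (3 of 12, against 5.43% of all rows) and of the chaperones in Q-tg at 0.85 (3 of 18, against 3.86%). Their widest differences were Npm1, a nucleolar chaperone, at 0.22 in R-tg at 0.85, and Sesn2, a stress-induced inhibitor of mTOR signalling, at 0.22 in Q-tg at 0.85. In KO minus WT at dose 0 the median of the biogenesis list was 0.057, with 34 of 40 above zero, beside 0.018 over all rows, of which 61.4% were above zero.

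Although no group comparison gave a call, the ribosomal protein genes varied together from dam to dam. With group means subtracted, the median Pearson r over the 1891 pairs of members was 0.18, and 25.7% of pairs were above 0.4, against 0.051 and 14.9% over all pairs of genes. Among the 53 ribosomal members the median was 0.25, within the large subunit 0.24, within the small subunit 0.27 and between subunits 0.25. Part of that is shared by bright genes: over 1956 of them the median was 0.18, beside 0.26 for the 44 bright ribosomal members. All points share arrays and RMA normalization, so these are descriptions over n = 60 arrays with no p.

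Co-variation can be read per gene as the correlation with the median of the other members. The 5 highest were Rps4x at 0.72, Rps7 at 0.71, Rps27l at 0.71, Rpl6 at 0.71 and Rpl10 at 0.70, with rho between 0.66 and 0.72 and values between 0.64 and 0.72 without the 2 farthest arrays. Rps7 binds Mdm2 like Rpl5, and Rps27l is itself a p53 target, so a paralogue form stood among the most typical members. Of the 62, 28 were above 0.5 and 7 below zero. The 5 lowest were Rps23rg1 at -0.40, Rpl3l at -0.32, Rps4l at -0.12, Rpl10l at -0.11 and Rpl39l at -0.064. Among ribosomal proteins proper, Rplp1, a stalk protein, and Rpl41, the smallest ribosomal protein, were below zero, both at -0.030.

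The sign of Rps4l depended on few arrays: it was 0.062 without Q-tg 0.85 replicate 1, and 0.20 without the 10 arrays that go against their label. Rps23rg1 and Rpl3l, at low signal, moved with the arrays' lower quartile (r = 0.69 and 0.68), and with the lower quartile and 95th percentile regressed out they were at -0.031 and 0.020.

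The members' median moved with the signal distribution of the arrays. It correlated with the 95th percentile of all values on the array at r = 0.57 (rho 0.54, 0.51 without the 2 farthest arrays) and with the lower quartile at -0.46. With both regressed out, the median pair r was 0.15 in place of 0.18. Without the 10 arrays that go against their label it was 0.16.

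Members did not form a single block. A first principal axis held 26.7% of their variance and a second 19.9%. The first followed the array's 95th percentile at r = 0.77, and the second hardly did (0.18). On the second axis 23 ribosomal members lay on the side of Rps6 and Rpl21, with Rps15a and Rps25, and 30 on the side of Rplp1 and Rps19, with Rps3, Rpl13, Rps21 and Rps14. Rps6 is the target of S6 kinase, and Rps3 is a small-subunit protein at the mRNA entry that also acts in DNA repair. Both sides hold proteins of both subunits.

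Pairs across that axis were opposed. Rplp1 and Rps6 had r = -0.86 (rho -0.81), Rpl21 and Rplp1 -0.85 (rho -0.82), and Rps19 and Rps6 -0.72 (rho -0.64). Rpl21 and Rps6 moved together at 0.87 (rho 0.88), as did Rpl13 and Rpl36 at 0.81 and Rpl24 and Rpl7 at 0.80. In R-tg at 0.85 mg/kg/d, Rps6 read 12.93, 12.88, 12.91, 12.98 and 12.67, where Rplp1 read 12.48, 12.61, 12.49, 12.37 and 12.74. The array with the least Rps6 signal had the most Rplp1, and the array with the most Rps6 had the least Rplp1.

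The array with that low Rps6 reading, R-tg 0.85 replicate 5, stood apart for ribosomal protein genes. It held the lowest of 60 values for 8 members and the highest for 8 others, 16 extremes in all, where the next array, Q-tg 0.85 replicate 4, held 9. Without it the second axis still held 17.3% of the variance, and Rplp1 and Rps6 were at r = -0.84. With all rows of these genes, the brightest included, all 16 pairs of a Rplp1 row and a Rps6 row were negative, from -0.88 to -0.48. All 72 pairs of a Rpl21 row and a Rps6 row were positive, from 0.22 to 0.91. Rows of Rps6 followed each other at r from 0.91 to 0.99, so these pairs are not independent. Over the rows of Rpl21 and Rplp1, 17 of 18 pairs were negative, with a median of -0.37 and a range from -0.85 to 0.024.

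**Figure D5:**
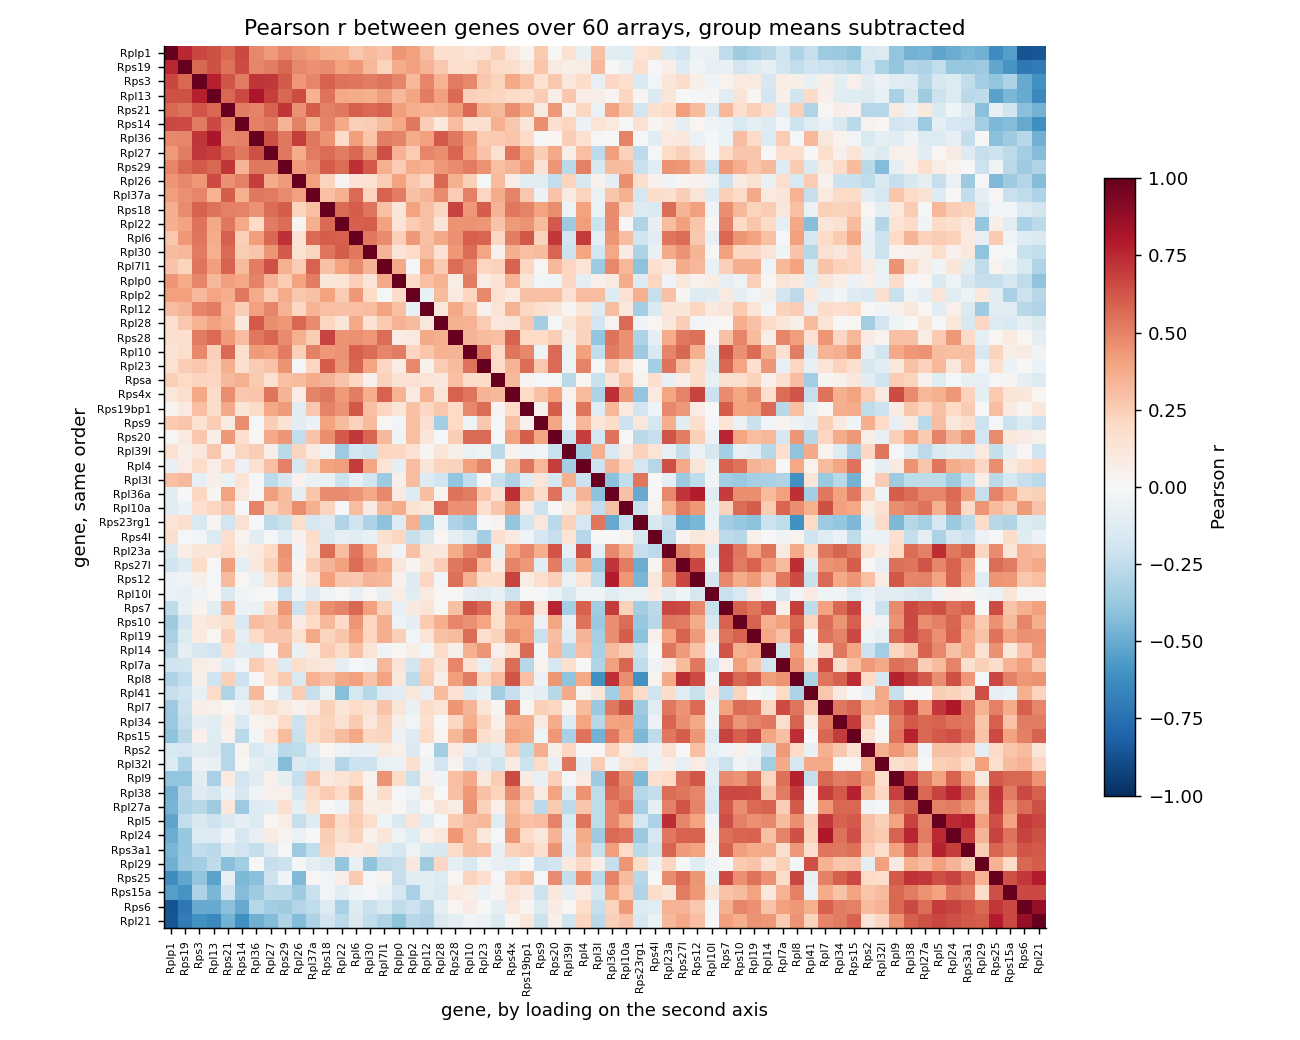
Pearson correlations between the 62 genes over 60 arrays with group means subtracted, as a colour from -1 (blue) to 1 (red), with genes ordered by their loading on the second axis. A red block led by Rplp1 and Rps19 and another that ends in Rps6 and Rpl21 face each other across blue corners, where the lowest pair, Rplp1 and Rps6, is at -0.86.

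Outside the family, the 10 genes closest to the members' median were Lsm3, a component of the Lsm ring of spliceosomal RNA, at r = 0.79 (rho 0.72), the arginine methyltransferase Prmt1 at 0.78, Hax1 at 0.75, Churc1 at 0.73, the intraflagellar transport protein Ift46 at 0.73, Uxt at 0.71, Trappc1 at 0.70, the Integrator subunit Ints4 at 0.70, the nuclear pore protein Nup88 at 0.70 and the mRNA export factor Thoc5 at 0.69. Over all 19876 non-members the median r was -0.048, and 3.25% were above 0.5. All 40 biogenesis genes were positive, with a median r of 0.38, as were all 16 elongation factors and other TOP mRNAs (0.30). The 77 mitochondrial ribosomal protein genes, a list added after values were seen, were all positive too, with a median of 0.43. On the second axis, 36 of 40 biogenesis genes lay on the side of Rplp1 and Rps19, with a median r of -0.46 with the axis, beside -0.19 over all non-members.

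Markers of some cell types moved with the members. All 7 measured markers of cycling progenitors were positive, with a median r of 0.53, led by Eomes, the marker of intermediate progenitors, at 0.66 and Hmgb2 at 0.65. The median of these 7 correlated with the members' median at 0.63 (rho 0.63, 0.56 without the 2 farthest arrays, 0.58 with array quantiles regressed out). The mean signal of these 7 markers on an array ranged, over all groups, from 8.72 to 9.06, and the groups overlapped. Of 8 neuron markers 1 was positive, with a median r of -0.12 that became -0.31 with array quantiles regressed out, and the correlation of the list's median went from -0.21 to -0.55. Of 5 erythroid markers, 3 of them below the dim level, none was positive, with a median r of -0.33 that became -0.015 with array quantiles regressed out. None of 6 hindbrain and spinal cord markers, 2 of them dim, was positive either. Their median r was -0.23, and -0.25 with array quantiles regressed out. In pooled whole brain, fewer cells of a type and less RNA per cell cannot be told apart, and the part of these markers in the members' variation was not tested.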

How the data were processed

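Fetal brain RNA was measured on 60 arrays, 5 in each of 12 labelled groups. The authors deposited log2 signals made by RMA, and per the submitters' processing notes they used the oligo package under R 2.15.1. The values were used as deposited. Background, normalization and probe summary were thus set by the authors, and RMA gives all arrays a similar distribution, so a shift shared by most genes would not show. Of 28858 transcript clusters, the platform annotation gives 1 symbol for 21789, several for 1621 and none for 5448. Names and starts come from RefSeq tables of GRCm38.p6.

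A model with the 12 groups was fitted to the 21789 rows with limma 3.58.1 in R 4.3.3. Tests were 2-sided, with Benjamini-Hochberg adjustment over all rows of a comparison and a threshold of 0.05. On simulated data for WT at 0.75 against 0, with 21789 rows, the test recovered 0% of differences of 0.1 log2 units, 44% of 0.25, 96% of 0.5 and 100% of 1. The changed rows were drawn at random from all rows. Noise was independent between rows, whereas real rows vary together. Co-variation was computed with numpy 2.4.6 and pandas 2.3.3 after group means were subtracted.

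Members, gene lists and alternatives were chosen with earlier results of these data known. Named genes are the 4 widest differences of a comparison, the 5 highest and lowest in SD (dim members left out) and in co-variation, every paralogue form, the 4 widest of a described list, and the 10 non-members most correlated with the members. Genes named beyond this rule were chosen after their values were seen.

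The replicate numbers do not pair the arrays: over 330 pairs of the same number in different groups, deviations had a median r of -0.014, and 93 of 330 were above 0.1. Alternatives tried were array weights, a robust variance prior, a dim filter, all rows, centring and the replicate block. Further ones were fits of only the groups in a comparison, means over a gene's rows and leaving out arrays. A fit without 10 arrays and covariates of the arrays' distribution were chosen after seeing the data. Scanner files were not used here.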

Additional observations from a re-analysis of the deposited data

Results flagged for a closer look

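Groups were searched for arrays far from the other 4, by the gap to the nearest array over the group's range, and 7 of 88 groups of values passed the limit of 0.71. Chance flags about 1 in 20 of unselected groups. Most values searched were those of members with the widest differences, which a stray array can itself widen. That rate is therefore no benchmark here. The members' median in KO at 0.75 had 1 array (replicate 2) at 0.082, where the others lay between 0.00014 and 0.0063. Rpl14 was at 6.84 in Q-tg 0.85 replicate 4, where the others lay between 7.81 and 7.89, and at 7.36 in KO dose 0 replicate 2, whose Pon1 signal is against the label, where the others lay between 7.73 and 7.87. In KO at 0.5, Rpl34 was at 10.03 in replicate 1 (others 10.18 to 10.24) and Rpl41 at 12.46 in replicate 3 (others 12.28 to 12.33). Rps23rg1 was at 6.84 in WT 0.85 replicate 2 (others 7.23 to 7.39), and Rpsa at 11.25 in Q-tg dose 0 replicate 1 (others 11.10 to 11.14).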

How the results depend on the processing

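No alternative called a member: over 20 counts of members (the F test and 19 comparisons) and 519 alternative values, each was 0, which includes array weights, centring, the fit without 10 arrays and leaving out each of 60 arrays (0 to 0 in each count). With the replicate number as a block (replicate block), the counts were 0 for members and 0 for all rows, so pairing changed no call. Elsewhere on the array counts did move: the F test called 38 rows with array weights and 79 without the 10 arrays, beside 0. Of 76 differences named in the text, 1777 of 1778 alternative values kept their sign and none passed. Rpl14 in Q-tg at 0.85 reversed to 0.0048 without replicate 4 of that group, which holds its lowest reading, and lay between -0.26 and 0.0048 with each array left out.

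The median pair correlation of members, 0.18, moved to 0.27 with arrays centred on their median and to 0.23 with a gene's rows averaged, and it lay between 0.16 and 0.19 with each array left out. The cause was not tested. Medians over members moved by more than 0.031, the median over groups of the SD of the members' median, only under centring, to 0.059 in R-tg at 0.75 (from 0.022, less than the SD of 0.046 in that group alone) and, for responses at 0.75, to 0.071 (KO minus WT), 0.086 (R-tg minus WT) and 0.065 (R-tg minus Q-tg).

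The 5 arrays per group limit what can be seen: the simulation recovered 44% of differences of 0.25, wider than most seen here. That share is for rows drawn from the whole array, with a median SE of 0.067 in the fit. Members had a median SE of 0.047, and their own share was not simulated. Rows of processed copies can share probes, 20 ribosomal protein symbols were left out, and 10 arrays go against their genotype label.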

Other observations

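Some lists of cell type markers followed the second axis of the ribosomal protein genes, and others did not. All 8 measured microglia markers and 7 of 8 endothelial and pericyte markers lay on the side of Rplp1 and Rps19. The median of the microglia markers correlated with the axis at -0.61 and that of the endothelial and pericyte markers at -0.64, and at -0.55 and -0.55 without R-tg 0.85 replicate 5. All 7 cycling progenitor markers and all 6 bone and nasal mucosa markers lay on that side too, though their medians were only at -0.23 and -0.18. The medians of the pituitary and choroid plexus markers were at -0.25 and -0.34. Neuron markers lay the other way at 0.34, and 5 of 6 hindbrain and spinal cord markers did, at 0.35. The median of the erythroid markers was at -0.0051, that of radial glia and astrocyte markers at -0.062, and that of skeletal muscle markers at 0.12, or 0.0046 without that array. Over 19876 non-members, 4953 had a positive correlation with the axis, so most genes on the array lay on the side of Rplp1. The part of these cell types in the axis was not tested.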
